A study of Arabidopsis thaliana with 3 samples.

Results

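The nuclear genes for subunits of photosystem I were examined as targets of TSN1 (TUDOR STAPHYLOCOCCAL NUCLEASE 1, AT5G07350), an RNA-associated protein of Arabidopsis thaliana. The 10 genes PSAD-1, PSAD-2, PSAE-1, PSAF, PSAG, PSAH-2, PSAK, PSAL, PSAN and PSAO were chosen by gene identifier, and all 10 were among the 1504 target genes. They held 49 of the 5673 deposited binding sites. The binding sites came from iCLIP2, in which ultraviolet light joins protein to RNA in living tissue, the protein is purified, and the point where reverse transcription stops marks the crosslinked nucleotide. The 3 biological replicates formed a single group of Col-0 seedlings, 14 days old, that carried pTSN1::GFP:TSN1, TSN1 tagged with green fluorescent protein and driven by its own promoter, in a wild-type background. Material was enriched in aerial tissue and pooled from 3 plates per replicate, crosslinked at 254 nm with 2000 mJ/cm2 and collected 10 h after lights on in days of 16 h light. There was no control sample, so TSN1 crosslinks and background of the purification cannot be told apart in any value below. The deposited lists combine the replicates, so no value belongs to a single replicate, read depth is unknown, and no spread between replicates can be given. The intervals below cover only the counting of sites or peaks.

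Photosystem I is the light-driven enzyme of the thylakoid membrane that takes electrons from plastocyanin on the lumen side and hands them to ferredoxin on the stroma side. Its reaction centre proteins PsaA and PsaB and the iron-sulphur protein PsaC are made inside the plastid, while the genes examined here are nuclear. Their messages are translated in the cytosol and the proteins are imported through a transit peptide. PsaD and PsaE form the stromal ridge where ferredoxin docks, PsaF and PsaN serve the plastocyanin side, PsaG and PsaK flank the antenna belt of light-harvesting complex I (LHCI), and PsaH, PsaL and PsaO lie where light-harvesting complex II (LHCII) docks during state transitions.

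The files held 2 levels of evidence for each gene. A called peak is a single crosslinked nucleotide with a score, and a binding site is a window of 5 nt that takes the highest score of the called peaks inside it. The score is the authors' own value without a stated unit, so it was used only to describe and rank. Over all 5295 sites in protein-coding genes the median site score was 12.3, with quartiles of 8.12 and 18.4. Positions along a gene are given as a fraction of its annotated span, introns included, with 0 at the 5' end and 1 at the 3' end. Coordinates are TAIR10.

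All 10 genes had at least 1 binding site, where 73.8% of the 1837 protein-coding genes with a called peak had one. At least 2 sites were found in 9 of the 10, against 49% of the genes with a called peak. All 10 had a site above 12.5, the median score of all sites, against 40.6%. Among all annotated nuclear protein-coding genes, expressed or not, 5.04% were targets. The median was 6 sites per gene and the range 1 to 7, beside a median of 2 and quartiles of 1 and 5 over the 1403 protein-coding targets. RNA abundance was not measured, and its part in these counts and in the scores below was not tested.

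The site scores of the photosystem I genes were mostly in the upper part of the list. Of the 49 sites, 48 scored above the median of all sites (98.0%, Wilson 95% interval 89.3 to 99.6), beside 48.6% of all sites in protein-coding genes. Above the upper quartile of protein-coding sites lay 38 of the 49 (77.6%). The median was 32.8, with quartiles of 20.0 and 43.6 and a range from 9.23 in PSAE-1 to 87.6 in PSAF. Summed over a gene, 5 of the 10 exceeded more than 90% of protein-coding targets, led by PSAL with a summed score of 336, the 37th highest of 1403. Sites of a gene share their transcript, so these 49 values are not independent, and no test was made on them.

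**Figure D1:**
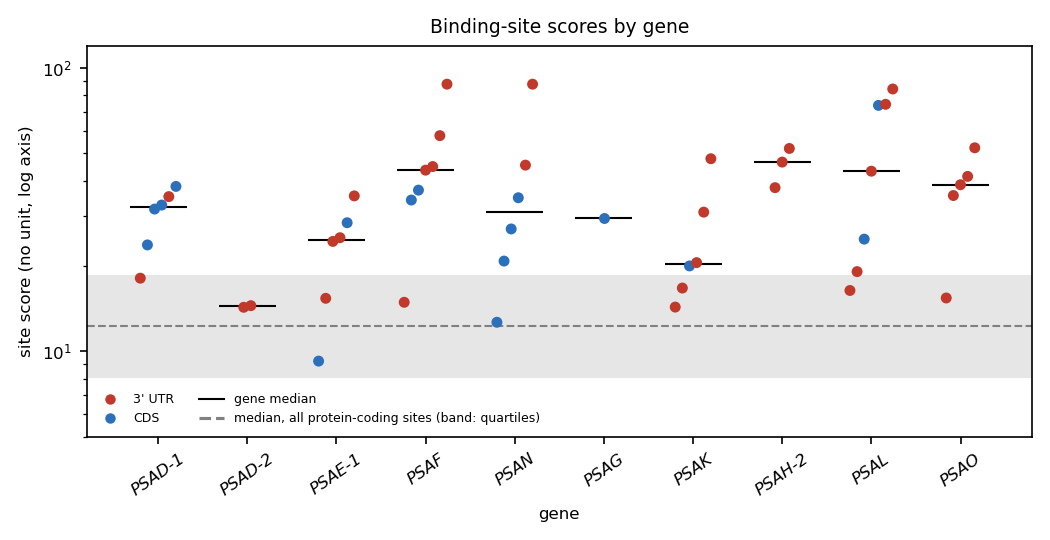
Score of each binding site (vertical log axis, no unit) in the 10 photosystem I genes, coloured by the authors' region label, with the gene median as a bar and the median (12.3) and quartiles of all protein-coding sites as a dashed line and band. PSAD-2 is the only gene whose sites all lie inside the band, and the highest sites, near 87.6, belong to PSAF and PSAN.

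The stromal ridge genes held 14 sites with a median score of 24.8. PSAD-1 (AT4G02770, chromosome 4, minus strand), which encodes the ferredoxin-docking subunit, had 6 sites between positions 1229180 and 1229610. From 5' to 3' its sites scored 38.2, 23.7, 31.8 and 32.8 with the label coding sequence (CDS), then 35.1 and 18.1 with the label 3' untranslated region (3' UTR). The PSAD-1 values ran from 18.1 to 38.2, and the highest was the most 5' site, at a relative position of 0.49.

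PSAD-2 (AT1G03130, chromosome 1, minus strand), the second gene for the same subunit, had 2 sites between 753513 and 753525. Both were labelled 3' UTR, and they scored 14.3 and 14.5. Both lay below every PSAD-1 site, and the PSAD-2 summed score of 28.8 compared with 180 for PSAD-1. PSAD-2 had 29 called peaks and PSAD-1 45, a smaller ratio than in sites or summed score.

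PSAE-1 (AT4G28750, chromosome 4, minus strand), for the small stromal subunit beside PsaD, had 6 sites between 14202899 and 14203797. Its CDS sites scored 9.23 and 28.4 and its 3' UTR sites 15.4, 35.3, 24.4 and 25.2 from 5' to 3'. Both CDS sites also lay within the span of the neighbouring gene AT4G28755. PSAE-2 (AT2G20260), the other gene for this subunit, had 4 sites, 2 labelled CDS and 2 labelled 3' UTR, with a median score of 18.1 and a highest score of 19.1, below the PSAE-1 median of 24.8.

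The genes for the H subunit showed the opposite order in sites and in score. PSAH-2 (AT1G52230, listed as PSAH2, chromosome 1, plus strand), whose product is needed for LHCII docking, had 3 sites between 19455391 and 19455605, all labelled 3' UTR, with scores of 37.8, 52.0 and 46.5. PSAH-1 (AT3G16140) had 5 sites, with a median of 15.5 and a highest score of 19.6, so that every PSAH-2 site scored above every PSAH-1 site. The 2 highest PSAH-2 sites also lay in the span of ROPGEF11, which overlaps that of PSAH-2. Genes for the same subunit are similar in sequence, and how the authors placed reads that match both is not given in the sources used here, so the split between such copies is uncertain.

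On the plastocyanin side, PSAF and PSAN held 13 sites with a median score of 37.0. PSAF (AT1G31330, chromosome 1, minus strand), whose product binds plastocyanin, had 7 sites between 11214943 and 11215911. Its CDS sites scored 37.0 and 34.2, and its 3' UTR sites 43.6, 14.9, 57.7, 44.9 and 87.6 from 5' to 3'. The last 3 of these followed each other at steps of 7 nt, at relative positions of 0.81 to 0.82, and held the 3 highest scores of the gene.

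PSAN (AT5G64040, chromosome 5, minus strand), for the lumenal subunit N, had 6 sites between 25628694 and 25629327. Its 4 CDS sites scored 12.7, 20.8, 34.8 and 27.0, and its 3' UTR sites 45.4 and 87.6. Both 3' UTR sites, 12 nt apart at 0.84 and 0.85, lay above all of its CDS sites. For the highest site of each of PSAF and PSAN, 98.7% of protein-coding sites scored lower.

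The genes of the LHCI side, PSAK and PSAG, held 7 sites. PSAK (AT1G30380, chromosome 1, plus strand) had 6 sites between 10722357 and 10723061. Its CDS site scored 20.0, and its 3' UTR sites scored 16.7, 20.5, 14.3, 31.0 and 47.8 from 5' to 3'. Of these, 4 lay between relative positions of 0.42 and 0.46, and the highest stood alone 391 nt further 3', at 0.82.

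PSAG (AT1G55670, chromosome 1, minus strand) had a single site, at 20803108 to 20803112, labelled CDS, with a score of 29.6. The site also lay in the span of AT1G55673, which overlaps that of PSAG. The PSAG span held 37 called peaks, 30 of them in the shared stretch. Of the called peaks outside the site, 2 scored higher than the site itself, at 41.0 and 40.9. The 41.0 peak lay outside the shared stretch.

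The genes of the LHCII side besides PSAH-2 were PSAL and PSAO. PSAL (AT4G12800, chromosome 4, plus strand), for the subunit that anchors PsaH and joins photosystem I units in cyanobacterial trimers, had 7 sites between 7521580 and 7522561. Its CDS sites scored 73.8 and 24.9 and its 3' UTR sites 19.1, 16.4, 84.3, 74.4 and 43.2 from 5' to 3'. PSAL had high sites at both ends: the 73.8 site at a relative position of 0.22, and a row of 3 sites at steps of 6 nt at 0.86 to 0.87, with 3 lower sites between them.

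PSAO (AT1G08380, chromosome 1, minus strand), for a subunit at the LHCII side, had 5 sites between 2640964 and 2641561, all labelled 3' UTR. They scored 38.7, 35.5, 15.4, 41.4 and 52.3 from 5' to 3', at relative positions of 0.33, 0.36, 0.59, 0.62 and 0.86. The most 3' site was the highest, as in PSAD-2, PSAF, PSAN and PSAK but not in PSAD-1, PSAE-1, PSAH-2 or PSAL.

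**Figure D2:**
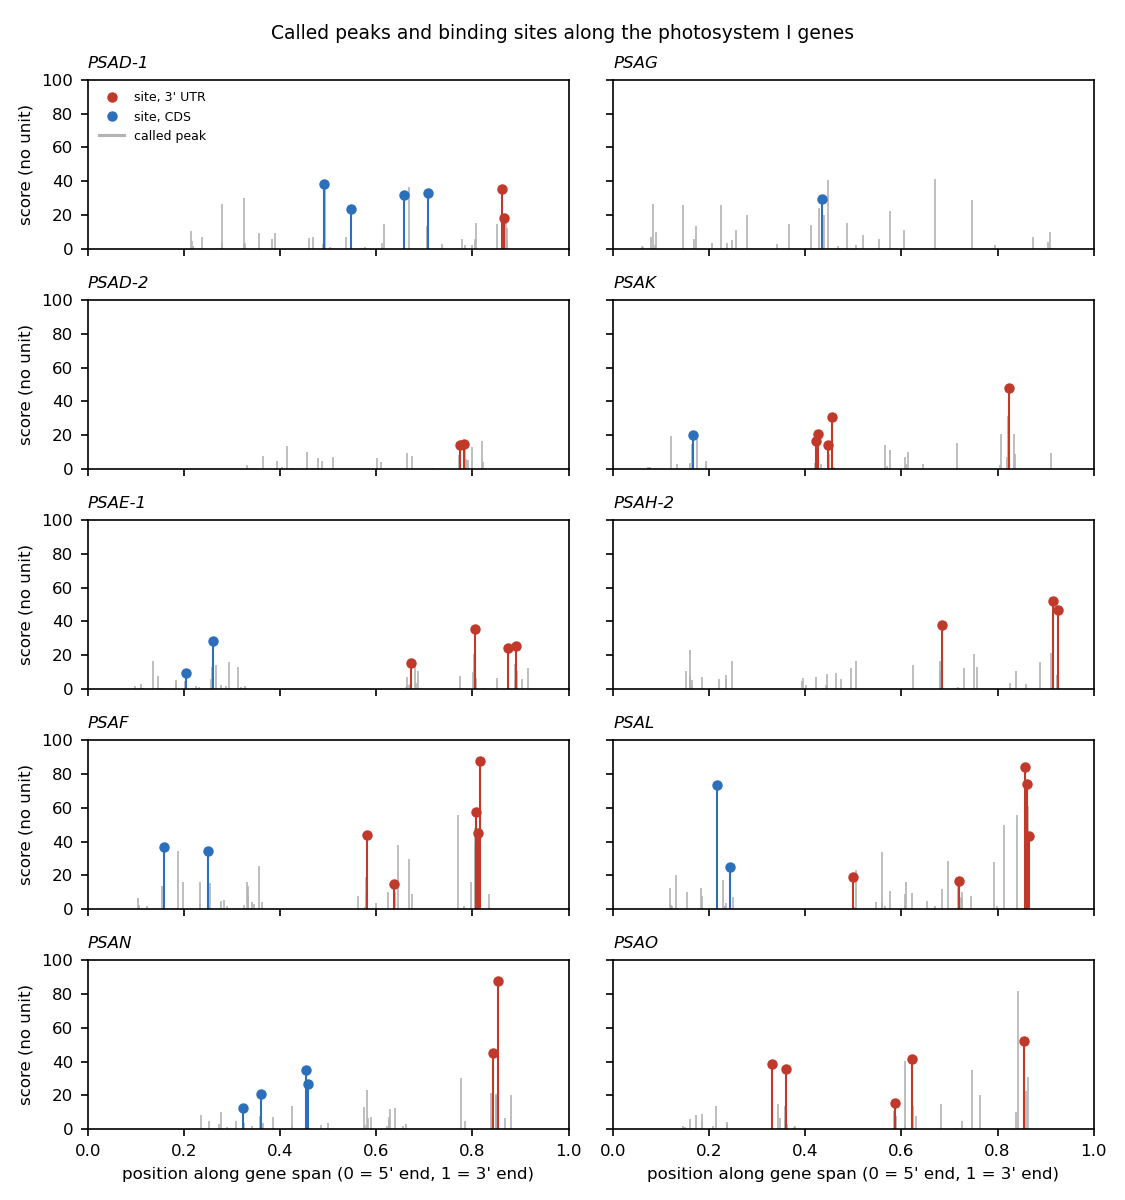
Called peaks (grey lines) and binding sites (red points for 3' UTR labels, blue for CDS) along each photosystem I gene, with relative position on the horizontal axis and score (no unit) on the vertical axis. In 8 of the 10 genes the highest site lies beyond 0.75, while in PSAD-1 it is the most 5' site and in PSAG the single site lies at 0.44. The matching share over all protein-coding targets was not computed.

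The authors' labels placed 33 of the 49 sites in 3' UTRs (67.3%, Wilson 95% interval 53.4 to 78.8) and 16 in CDS, and none in introns or 5' UTRs. The 3' UTR share of all sites in protein-coding genes was 67%, so the photosystem I genes were close to the background. By gene, 6 had both labels, PSAD-2, PSAH-2 and PSAO had 3' UTR sites alone, and PSAG a CDS site alone. The label reached far upstream in some genes: 7 sites of PSAK, PSAO and PSAL labelled 3' UTR lay before the relative position 0.5. No exon models were used, so whether those sites lie behind the stop codon of the main isoform was not tested.

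Among the 6 genes with both labels, the highest site was labelled 3' UTR in 5, beside 70.9% of the 522 protein-coding targets with both labels. The exception was PSAD-1. By medians the 3' UTR sites were higher in PSAE-1, PSAF, PSAN and PSAK, by a wide margin only in PSAN (66.5 against 23.9) and hardly at all in PSAK (20.5 against 20.0). In PSAD-1 (26.6 against 32.3) and PSAL (43.2 against 49.3) the CDS median was higher. Over all sites of the 10 genes the median score was 35.5 for 3' UTR labels and 29.02 for CDS labels.

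Along the gene the sites had a median relative position of 0.64, beside 0.63 for the 5200 nuclear sites of protein-coding genes. Beyond 0.75 lay 19 of the 49 sites (38.8%), beside 36.4% of all. In 9 of the 10 genes, PSAG being the exception, at least 1 site lay beyond 0.75. In 8 genes the highest site did, at positions from 0.78 in PSAD-2 to 0.91 in PSAH-2. The shares of all protein-coding targets with such a site, or with such a highest site, were not computed. Genes with more sites have more chances of a site beyond 0.75, and neither count shows a trait particular to these genes.

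Binding sites of these genes often stood side by side. Of 39 distances between the starts of neighbouring sites, 10 were at most 10 nt (25.6%, Wilson 95% interval 14.6 to 41.1), beside 10.5% of 3892 such distances over all protein-coding targets. The median distance was 72 nt, against 158 nt over all targets. Such a close pair was present in 7 of the 9 genes with at least 2 sites, where 30.7% of the 929 protein-coding targets with at least 2 sites had one. In PSAD-1, PSAD-2, PSAF, PSAH-2 and PSAL a close pair lay beyond 0.75, while those of PSAN and PSAK lay near 0.45. Sites are windows of 5 nt, so starts 5 nt apart, as in PSAK, mean windows that touch. Whether the sites of such close rows are separate was not tested. Genes with more sites have more chances of a close pair, and gene length was not taken into account. The limit of 10 nt was chosen after the data were seen, and no test of these differences was made.

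**Figure D3:**
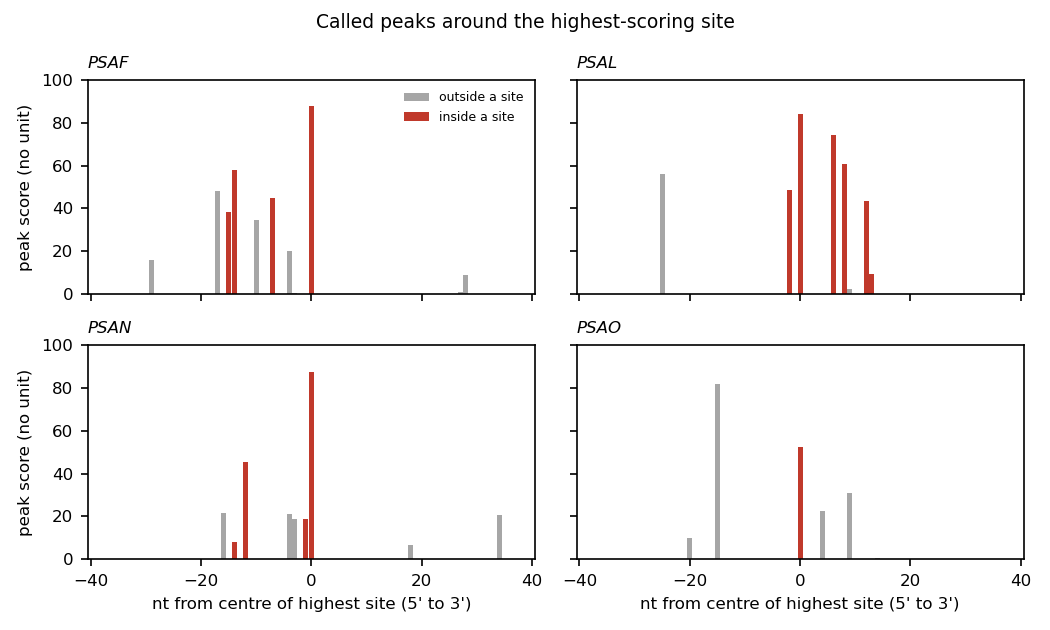
Called peaks within 40 nt of the highest-scoring site of PSAF, PSAL, PSAN and PSAO, with distance from the site's centre in nt (5' to 3') and peak score (no unit). In PSAF and PSAL neighbouring sites follow at steps of 7 and 6 nt, and in PSAO the highest called peak of the gene, 82.0, lies 15 nt before the centre of the site and in no site.

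The spans of the 10 genes held 451 called peaks, all on the strand of the gene, and 387 of them lay in no other protein-coding span. PSAL had the most called peaks, 59, followed by PSAE-1 and PSAF with 53 each, PSAN with 48, and PSAD-1 and PSAO with 45 each. PSAK and PSAH-2 had 41 each, PSAG 37 and PSAD-2 29. These counts include stretches shared with other genes.

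In PSAG 30 of the called peaks lay in the stretch shared with AT1G55673, in PSAE-1 25 in shared stretches, and in PSAH-2 9. Without shared stretches PSAG kept 7 called peaks, PSAE-1 28 and PSAH-2 32, and the other 7 genes kept all of theirs. Counted in this way, the median over all protein-coding genes with a called peak was 24, with quartiles of 9 and 53. PSAG lay below the lower quartile, PSAL with 59 above the upper quartile, PSAF with 53 at it, and the other 7 genes between the median and the upper quartile. The reference table has no strand for those neighbours, and which transcript the crosslinks belong to was not tested. Of the 49 sites, 44 lay outside shared stretches.

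Sites of the gene took in 96 of the 451 called peaks (21.3%, Wilson 95% interval 17.8 to 25.3). By the count that leaves out shared stretches, 90 of 387 called peaks lay in any binding site (23.3%, 19.3 to 27.7), beside 17.3% of the 63590 called peaks in protein-coding targets. By gene, the share of the 451 ran from 31.7% in PSAK to 9.76% in PSAH-2 and 1 of 37 in PSAG. Sites held a median of 2 called peaks, as over the whole list, and 13 of the 49 held only 1. Neighbouring peaks share a site, so these intervals are too narrow.

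**Figure D4:**
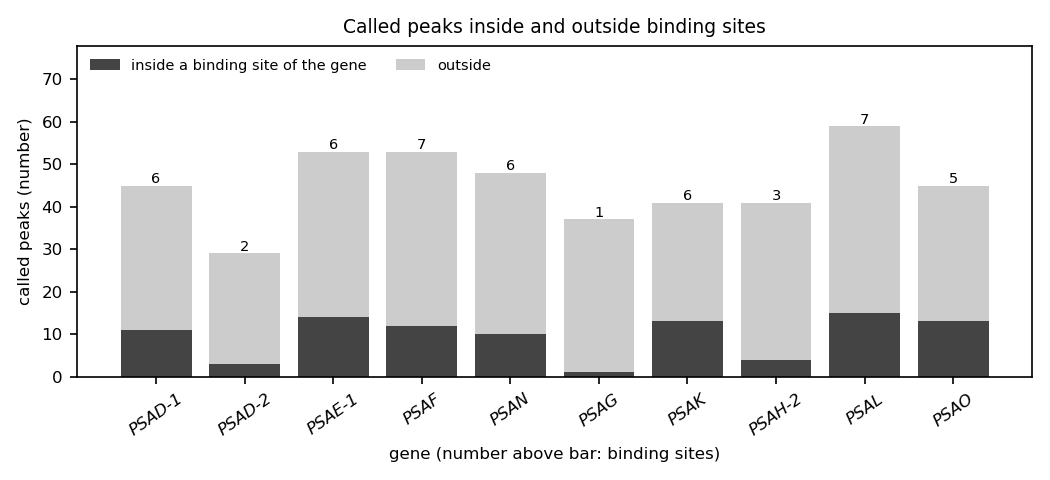
Number of called peaks in the span of each photosystem I gene, split into those inside (dark) and outside (light) the gene's binding sites, with the number of sites above each bar. PSAG has 37 called peaks, 30 of them in a stretch shared with AT1G55673, and a single site, while PSAK has 41 and 6 sites.

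High-scoring called peaks also lay outside sites. The 355 called peaks outside the 49 sites had a median score of 5.86, against 18.0 for the 96 inside. The 355 include called peaks in 2 sites, described below, that the authors' table assigns to no gene. Of the 355, 92 exceeded the median score of all sites. The matching share over all called peaks outside sites was not computed. In 3 genes the highest called peak lay in no site, beside 42.6% of the protein-coding targets with a called peak. In PSAO it scored 82.0, at 13 nt from the edge of the nearest site, which scored 52.3. In PSAG it scored 41.0, at 181 nt from the site, and in PSAD-2 16.5, at 34 nt. PSAL and PSAF each had a further called peak above 50 outside their sites, at 55.9 and 55.8. The rule by which called peaks became sites is not given in the sources used here.

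Called peaks were absent from long inner stretches of some genes. The widest distance between neighbouring called peaks was 422 nt in PSAE-1 (relative positions 0.33 to 0.65), 377 nt in PSAL (0.25 to 0.50), 292 nt in PSAF (0.36 to 0.56), 242 nt in PSAK (0.19 to 0.42) and 233 nt in PSAO (0.38 to 0.58). In the other 5 genes it was 135 nt or less, with 56 nt in PSAD-2 as the smallest. Whether these stretches are introns was not tested, and the share of all protein-coding targets with such a stretch was not computed.

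There were also 2 binding sites inside the gene spans, on the strand of the gene, that the authors' table assigns to no gene and that are not among the 49. In PSAD-1 such a site lay at chromosome 4, 1229918 to 1229922, with a score of 10.6 and a relative position of 0.22, 5' of all its other sites. In PSAG it lay at chromosome 1, 20803401 to 20803405, with a score of 1.43 and a position of 0.06. The PSAG site lay in a stretch that 2 gene spans share. Counting them would give PSAD-1 a site in its 5' part. Of 141 nuclear sites assigned to no gene, 46 lay inside the span of a protein-coding gene of the reference table.

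Other genes of photosystem I and its electron carriers were targets in 16 of 24 cases, with 95 sites. All 6 electron carrier genes were targets: FNR2 and FNR1, for the ferredoxin-NADP reductases, had 15 and 11 sites, DRT112, the gene of the major plastocyanin (PETE2), had 5 with a highest score of 118, the ferredoxin genes FD2 and FD1 had 3 and 2, and PETE1 had 1. PSI-P (PSAP), also known as CURT1B, a thylakoid curvature protein first described with photosystem I, had 8. Of the LHCI antenna genes LHCA2 and LHCA3 had 7 each, LHCA1 had 3 and LHCA4 1, and LHCA5 and LHCA6 none.

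The plastid genes PSAB, PSAA and PSAI had 14, 8 and 1 sites, and no site was listed for PSAC or PSAJ. None of the assembly factor genes PYG7, Y3IP1, PSA2 and PSA3 had a site, and PYG7 alone had called peaks, 7 in number. The median site score was 18.6 for the electron carriers, 14.9 for the LHCI antenna and 15.9 for the plastid-encoded subunits. It was 15.7 for PSAE-2 and PSAH-1 together and 17.8 for PSAP. All of these lay below the 32.8 of the 10 genes. Single genes differed: the medians of PETE2 (47.9) and FD2 (37.3) lay above 32.8, and those of FNR1, FNR2, FD1 and PETE1 below it. The highest sites of PETE2 (118) and LHCA3 (90.7) also scored above every site of the 10 genes. These are descriptions, and the differences were not tested.

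The 10 nuclear photosystem II subunit genes set beside them were all targets as well, with 54 sites, a median of 4 sites per gene and a median score of 25.4. Their 3' UTR share was 66.7% (Wilson 95% interval 53.4 to 77.8), and 20.2% of their 588 called peaks lay in sites (17.2 to 23.7). Their summed score of 1728 was close to the 1730 of the photosystem I genes. The highest photosystem II sites, at 132 in PSBX and 127 in PSBR, lay above the highest photosystem I site.

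**Figure D5:**
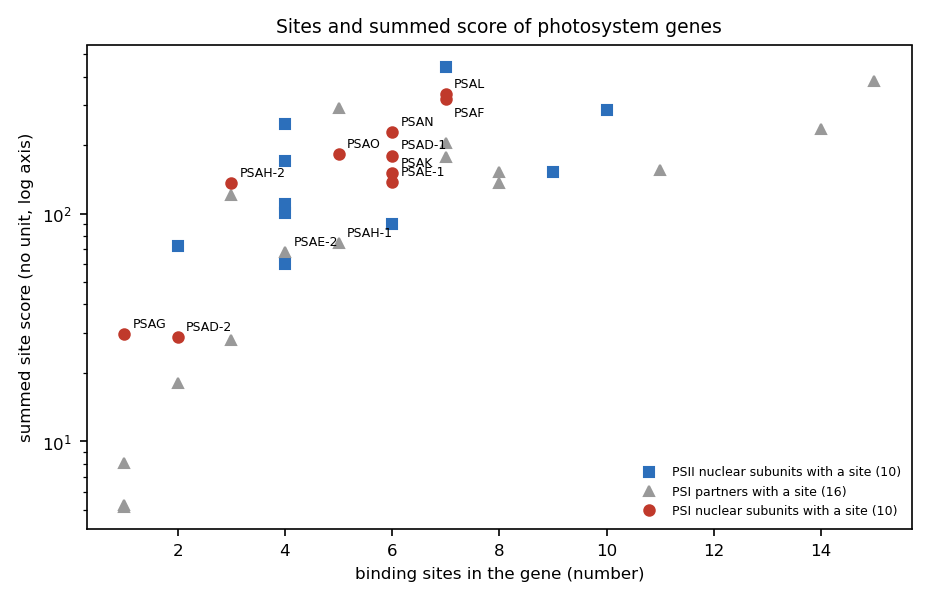
Number of binding sites (horizontal) and summed site score (vertical log axis, no unit) of each gene with a site: nuclear photosystem I subunits (red circles), other photosystem I genes and partners (grey triangles) and nuclear photosystem II subunits (blue squares). PSAH-2 lies above PSAH-1 with fewer sites, and the photosystem I and II subunits overlap.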

How the data were processed

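TSN1 iCLIP2 libraries of 3 replicates were combined by the authors into lists of called peaks, binding sites and targets. Per the submitters' processing notes, the tools were UMI-tools 1.0, bedtools 2.27.1, STAR 2.7.3a, FastQC 0.11.5 and SAMtools, with the TAIR10 build; for peak calling and replicate merging the method is not given in the sources used here. Per the deposited files, the score of a site equals the highest called-peak score inside it (5673 of 5673 sites), and the count of sites per target matched the site list for all 10 genes.

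Here sites were taken by gene identifier. Called peaks were assigned by gene spans of RefSeq TAIR10.1, which hold all 49 sites and carry no strand; the strand came from the sites. Because of this, called peaks of other genes were assigned without strand. Intervals are Wilson 95% intervals (SciPy 1.17.1). No test was made: there is 1 group without control. Helper functions were tested on simulated data. All members, lists and comparisons were chosen with earlier results of these data known. The text names all members, every gene of the photosystem I list with a site, PSAE-2 and PSAH-1; close pairs, peak-free stretches, the highest peaks outside sites, sites in no gene, PSBX and PSBR were chosen after their values were seen.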

Additional observations from a re-analysis of the deposited data

How the results depend on the processing

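No paired analysis was possible because there is a single group and the deposited lists combine the replicates, which also means that no replicate could be left out. Over 10 results and 27 alternatives, 23 values stayed within 1.5 times the main count, or within the 95% interval of the main share or median. Leaving out PSAD-1, PSAD-2, PSAE-1 and PSAH-2, which have a second gene for the same subunit, left 32 of the 49 sites, since fewer genes were counted. Without sites in the span of another gene, 9 of the 10 genes remained targets, since the only PSAG site lay in such a span. The share of called peaks inside sites (23.3%) was 31.8% among called peaks above the median score, and 34.9% when peaks within 5 nt of a site counted as inside. Close pairs were present in 7 genes at 10 nt and in 4 at 6 nt; that limit, and those on shared spans, were chosen after seeing the data. Depth per library is unknown, so genes without a site or peak cannot be called unbound.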
